A study of Mus musculus with 9 samples.

Results

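The genes described here are the 39 genes of fatty acid synthesis, fatty acid elongation and desaturation, triglyceride assembly, and lipid droplet coating and breakdown, measured by RNA-seq in the liver of mice fed a high-fat diet (HFD). They were chosen by gene symbol, with earlier results of these data known, so the shares below are not those of a list drawn up blind. All 39 were found among the 33211 genes of the count table, and all 39 were expressed highly enough to be among the 14220 genes tested. The mice were of the C57BL/6 strain by the labels, and by the study's methods wild-type males of the substrain C57BL6/J that were 8 weeks old when feeding began. One group of 5 libraries came from mice whose HFD was kept in a freezer after opening (HFDfre), and the other group of 4 libraries came from mice whose HFD was kept in a fridge (HFDfri). Both groups ate HFD for 7 weeks and neither carried a transgene or a deletion, so the comparison is between storage conditions of the same fatty diet, with no lean or chow-fed group. The labels number the libraries but do not say that each came from a separate mouse, so the p-values below measure the spread between these libraries, which may be technical.

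Library totals ran from 58614917 to 69353439 estimated counts. Levels are given as CPM, a gene's count scaled to the size of its library after TMM normalization. Hepatocyte genes dominated the libraries, with Alb at 52055 to 75721 CPM. The share of counts in mitochondrial genes was 15.4% ± 3.04 (SD, n = 5) for HFDfre against 10.6% ± 2.07 (SD, n = 4) for HFDfri (two-sided exact permutation p = 0.0397, Benjamini-Hochberg adjusted 0.119 over 3 measures of composition). The share in Gm26924, a ribosomal RNA-like locus, ran from 0.466% to 11.1%. HFDfri 1 stood apart within its group: its log2 CPM correlated with those of the other HFDfri libraries at 0.9593 to 0.9625, against 0.9718 to 0.9742 among those, across genes, which are not independent replicates. The log2 fold changes of several genes are therefore given with and without it.

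The liver makes fatty acids from citrate that leaves the mitochondria. ATP citrate lyase (Acly) splits it to acetyl-CoA, acetyl-CoA carboxylases (Acaca, Acacb) convert this to malonyl-CoA, and fatty acid synthase (Fasn) joins the units to palmitate, which elongases (Elovl genes) and desaturases (Scd and Fads genes) then modify. Glycerol-3-phosphate acyltransferase (Gpam) begins triglyceride assembly, which proceeds through acylglycerolphosphate acyltransferases (Agpat genes) and lipins (Lpin genes) to the diacylglycerol acyltransferases (Dgat1, Dgat2). Triglyceride is stored in droplets coated by perilipins (Plin genes), which the CIDE proteins (Cidea, Cideb, Cidec) help to grow, and lipases such as ATGL (Pnpla2) release the stored fat. SREBP-1c, encoded by Srebf1, and ChREBP, encoded by Mlxipl, are the transcription factors best known for driving the synthesis genes in the liver in response to insulin and sugar.

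Of the 39 genes, 1 passed the test across all genes. This was Acly, the gene of ATP citrate lyase, which rose in HFDfri by 1.604-fold (edgeR adjusted p = 0.0462). Of all genes tested, 1.05% had an adjusted p under 0.05. In all, 24 of the 39 genes were higher and 15 lower in HFDfri, and the median log2 fold change was 0.05, against -0.01 over all genes tested. An unadjusted edgeR p under 0.05 was found for 14 of the 39 genes, or 35.9%, against 21.2% of all genes. These were 9 higher genes (23.1%, against 11.4% of all genes) and 5 lower genes (12.8%, against 9.79%). The 9 were Acly, Acaca, Acacb, Fasn, Elovl2, Elovl6, Fads2, Gpam and Lpin1, and the 5 were Elovl5, Mogat1, Plin4, Cidea and Cideb. The CPM values of the groups had no overlap for 4 of the 39 genes (10.3%, against 7.69% of all genes), namely Acly, Acaca, Fasn and Elovl2, all higher in HFDfri. These counts moved with single libraries: the 14 became 9 without HFDfre 3 and 9 without HFDfri 3, and the 5 lower genes became 1 without HFDfri 3, and 3 without HFDfre 3, without HFDfre 4 or without HFDfri 1. Scaled by library totals without TMM, the unadjusted calls among the 39 genes were 9 higher and 3 lower. Under that scaling the genes past the adjusted p in all were 55 higher and 21 lower, against 71 and 79 with TMM, and none of the 39 genes passed.

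**Figure D1:**
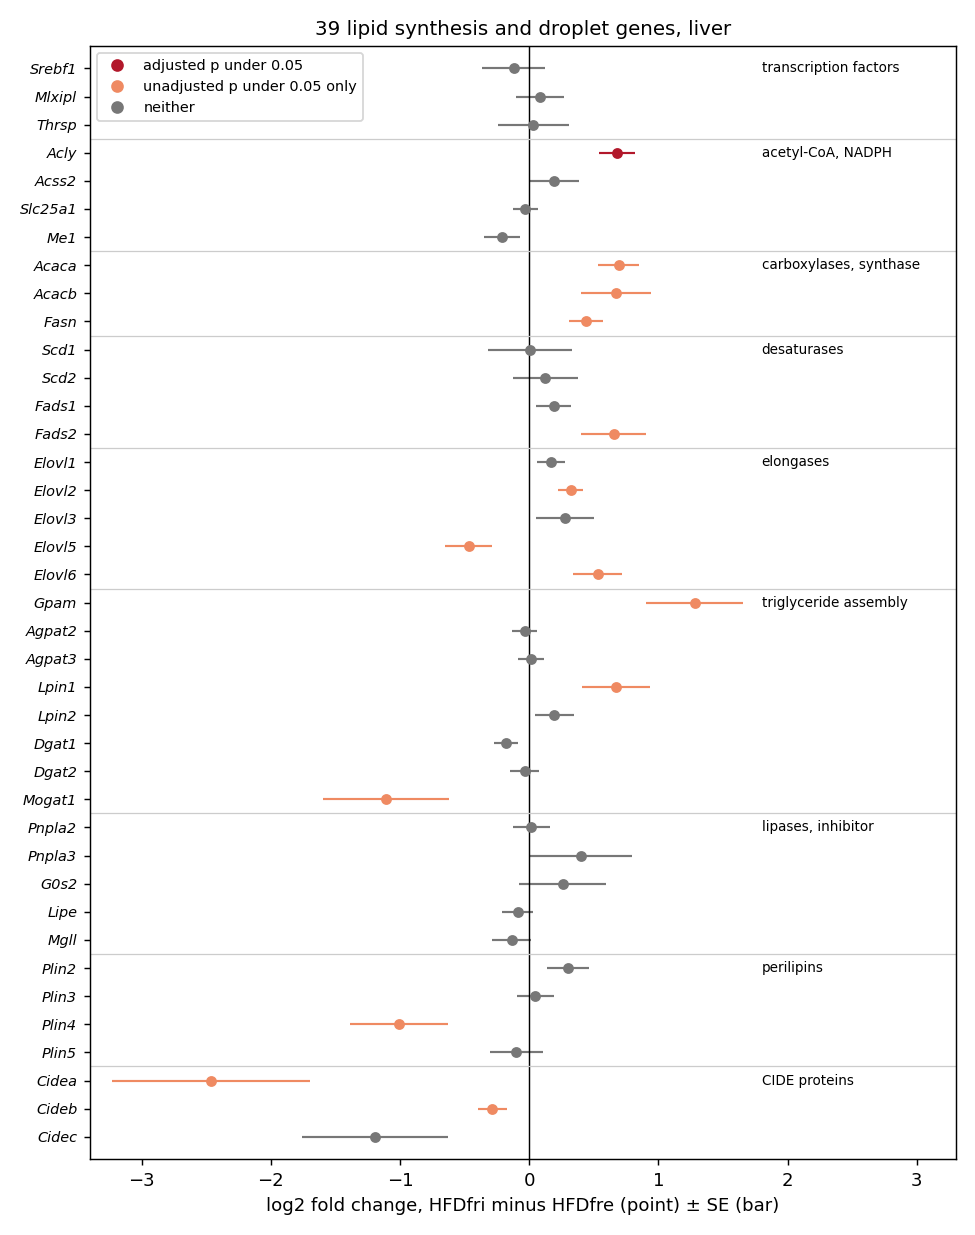
The 39 genes by role, with the log2 fold change of each (HFDfri minus HFDfre, point) and its standard error (bar) on the horizontal axis; red marks an edgeR adjusted p under 0.05, orange an unadjusted p under 0.05 only, and grey neither. Acly is the red point at 0.68, Gpam lies farthest to the right at 1.28 and Cidea farthest to the left at -2.46.

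The promoter of Acly, which passed the test, is shown with those of Fasn, Gpam and Plin4, which did not. Fasn, Gpam and Plin4 had an unadjusted edgeR p under 0.05 only, with positive log2 fold changes for Fasn and Gpam and a negative one for Plin4. These promoters give the sequence context of genes known as targets of lipid-responsive transcription factors. RefSeq (GRCm38.p6) gave a promoter window of 300 bases, 250 before and 50 after a start site, for 32 of the 39 genes, with 45 windows in all; Dgat1, Dgat2, Cidea, Elovl3, Fads1, Scd1 and Scd2 had none in the table used. Each is printed 5′ to 3′ on the strand of the gene, with the CCAAT box (CCAAT, or ATTGG on the other strand) and the GC box (GGGCGG, or CCGCCC on the other strand) in capitals.
Acly, chr11:100527951-100528250, minus strand: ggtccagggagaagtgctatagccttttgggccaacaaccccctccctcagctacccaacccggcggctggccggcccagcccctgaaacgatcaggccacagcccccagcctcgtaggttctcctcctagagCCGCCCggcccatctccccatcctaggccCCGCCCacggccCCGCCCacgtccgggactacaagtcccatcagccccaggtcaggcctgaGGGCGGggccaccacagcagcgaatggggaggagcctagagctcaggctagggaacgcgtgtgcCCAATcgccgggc
Fasn, chr11:120824498-120824797, minus strand: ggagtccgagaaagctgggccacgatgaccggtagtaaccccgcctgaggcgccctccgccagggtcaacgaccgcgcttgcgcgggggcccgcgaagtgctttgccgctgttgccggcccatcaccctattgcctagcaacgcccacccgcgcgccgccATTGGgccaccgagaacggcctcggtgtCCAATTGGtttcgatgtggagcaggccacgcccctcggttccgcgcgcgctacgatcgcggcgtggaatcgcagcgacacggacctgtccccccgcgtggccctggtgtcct
Gpam, chr19:55127189-55127488, minus strand, the first of 2 windows: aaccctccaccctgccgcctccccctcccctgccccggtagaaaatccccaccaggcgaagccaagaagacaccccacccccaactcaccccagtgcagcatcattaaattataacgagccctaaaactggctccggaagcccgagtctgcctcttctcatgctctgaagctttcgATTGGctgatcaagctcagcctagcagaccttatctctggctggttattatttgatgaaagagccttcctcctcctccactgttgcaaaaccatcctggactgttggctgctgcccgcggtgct
Plin4, chr17:56109733-56110032, minus strand: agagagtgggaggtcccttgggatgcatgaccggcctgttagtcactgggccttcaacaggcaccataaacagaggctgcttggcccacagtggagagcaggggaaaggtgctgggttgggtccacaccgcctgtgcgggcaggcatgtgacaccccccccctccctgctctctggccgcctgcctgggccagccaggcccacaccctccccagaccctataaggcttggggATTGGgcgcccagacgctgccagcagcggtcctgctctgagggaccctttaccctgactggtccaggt

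The Acly window held 4 GC boxes upstream of the start site and 1 CCAAT box after it, while the Fasn window held 3 CCAAT boxes, of which the pair nearest the start is joined, and no GC box. The Plin4 window and the printed Gpam window held 1 CCAAT box each and no GC box, and the other Gpam window held 1 GC box and no CCAAT box. On both strands, a GC box was found in 57.8% of the windows of these genes and in 35.7% of all 32851 windows of that length, and a CCAAT box in 44.4% and 37.4%. The E-box CACGTG, which ChREBP and USF proteins can bind, was in 15.6% and 7.15%, and the sterol regulatory element TCACNCCAC, the classical SREBP site, in 2.22% and 1.24%. The only window of these genes with that element was 1 of the 2 windows of Mlxipl. In these windows 1 pair of matches of different motifs overlapped. The Acaca window and both Cidec windows, which are not printed, held no match of any of these motifs. The only Acaca window, chr11:84195188-84195487, lies inside the gene, whose annotated 5′ end is at 84129672. The sequence before that end was therefore not searched. A match describes letters in a window and not a bound site.

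The transcription factors themselves did not pass the test. Srebf1 was at 141, 162, 111, 109 and 121 CPM in HFDfre 1 to 5 and 73.2, 182, 79.00 and 138 CPM in HFDfri 1 to 4, with HFDfri both below and above the HFDfre range. Its log2 fold change was -0.12 ± 0.24 (SE; edgeR adjusted p = 0.821), which became 0.04 without HFDfri 1 and 0.03 without HFDfri 3. The gene count joins the transcripts of SREBP-1a and SREBP-1c, and exons of Srebf1 overlap Rai1 on the other strand and Mir6922. Mlxipl was at 243, 278, 251, 219.6 and 240.0 CPM in HFDfre 1 to 5 and 394, 198, 251 and 201 CPM in HFDfri 1 to 4. HFDfri 1 was the highest library and the other HFDfri libraries lay within or below the HFDfre range of 219.6 to 278 CPM, so that the log2 fold change was 0.08 ± 0.18 (edgeR adjusted p = 0.835) with HFDfri 1 and -0.20 without it. Thrsp, the Spot 14 gene, whose product is known to promote lipogenesis, ranged from 175 to 577 CPM over the libraries, and the log2 fold change was 0.03 ± 0.28. Its highest value was that of HFDfre 4.

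Acly encodes the enzyme that supplies cytosolic acetyl-CoA, and it rose in HFDfri. Acly (ENSMUSG00000020917, chr11:100476353-100528000, minus strand, GRCm38) was at 59.1, 61.05, 52.9, 63.6 and 71.8 CPM in HFDfre 1 to 5 and 89.8, 112, 120.0 and 74.2 CPM in HFDfri 1 to 4. Every HFDfri library was above every HFDfre library, although HFDfri 4 exceeded HFDfre 5 by little. The means were 61.7 ± 6.89 CPM (HFDfre, SD, n = 5) against 98.9 ± 20.8 CPM (HFDfri, SD, n = 4), and the log2 fold change was 0.68 ± 0.14 (SE, edgeR adjusted p = 0.0462, higher in 4 of 4 HFDfri libraries). The call was lost when any of HFDfre 1 to 5, HFDfri 2 or HFDfri 3 was left out, with edgeR adjusted p from 0.064 to 0.134 and log2 fold changes from 0.58 to 0.74. Within the 5 libraries that held under 3% of their counts in Gm26924 (2 HFDfre, 3 HFDfri), the log2 fold change was 0.55 (edgeR adjusted p = 0.496), and the other 4 libraries, with 1 of HFDfri, were not tested on their own. The other genes of acetyl-CoA and NADPH supply had smaller differences, and 0 of 3 had an unadjusted edgeR p under 0.05. Acss2, which makes acetyl-CoA from acetate, ranged from 48.3 to 100.3 CPM with a log2 fold change of 0.19 ± 0.19. Slc25a1, the mitochondrial citrate carrier, ranged from 119 to 149 CPM with -0.03 ± 0.10. Me1, the cytosolic malic enzyme that makes NADPH, ranged from 91.9 to 158 CPM with -0.21 ± 0.14.

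The carboxylases and the synthase were all higher in HFDfri, and each had an unadjusted p under 0.05 without passing the adjusted threshold. Acaca (ENSMUSG00000020532, chr11:84129672-84401651, plus strand, GRCm38), the carboxylase that provides malonyl-CoA for synthesis, was at 43.01, 32.4, 35.8, 45.95 and 43.1 CPM in HFDfre 1 to 5 and 77.8, 51.7, 78.8 and 50.4 CPM in HFDfri 1 to 4. The HFDfri libraries formed a high pair, HFDfri 1 and 3, and a lower pair, HFDfri 2 and 4, and all lay above the HFDfre range. The means were 40.04 ± 5.68 CPM (HFDfre, SD, n = 5) against 64.7 ± 15.8 CPM (HFDfri, SD, n = 4), so that the log2 fold change came to 0.69 ± 0.16 (SE, edgeR adjusted p = 0.0589). Fasn (ENSMUSG00000025153, chr11:120805846-120824547, minus strand, GRCm38), the synthase, was at 172, 115, 137, 179.5 and 165 CPM in HFDfre 1 to 5 and 203, 217, 230.4 and 182 CPM in HFDfri 1 to 4, with the groups separated by the step from HFDfre 4 to HFDfri 4. The means were 154 ± 27.1 CPM (HFDfre, SD, n = 5) against 208 ± 20.4 CPM (HFDfri, SD, n = 4), so that the log2 fold change came to 0.44 ± 0.13 (SE, edgeR adjusted p = 0.109). Acacb, the carboxylase at the mitochondrial surface, whose malonyl-CoA restrains fatty acid oxidation, was at 16.03 to 50.3 CPM in HFDfre (median 25.6) and 38.2 to 52.4 CPM in HFDfri, and the log2 fold change was 0.68 ± 0.27 (edgeR adjusted p = 0.185). HFDfre 4 was within the HFDfri range for Acacb. Within the libraries under 3% Gm26924 the log2 fold changes were 0.60 for Acaca, 0.41 for Fasn and 1.08 for Acacb. The DESeq2 test on the same genes gave adjusted p of 0.00263 for Acaca and 0.0336 for Fasn, beside 0.000649 for Acly, and passed 5 of the 39 genes, the others being Elovl2 and Cidea. DESeq2 also called 1033 of the 14220 genes tested, against 150 with edgeR, so calls rose among all genes too.

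**Figure D2:**
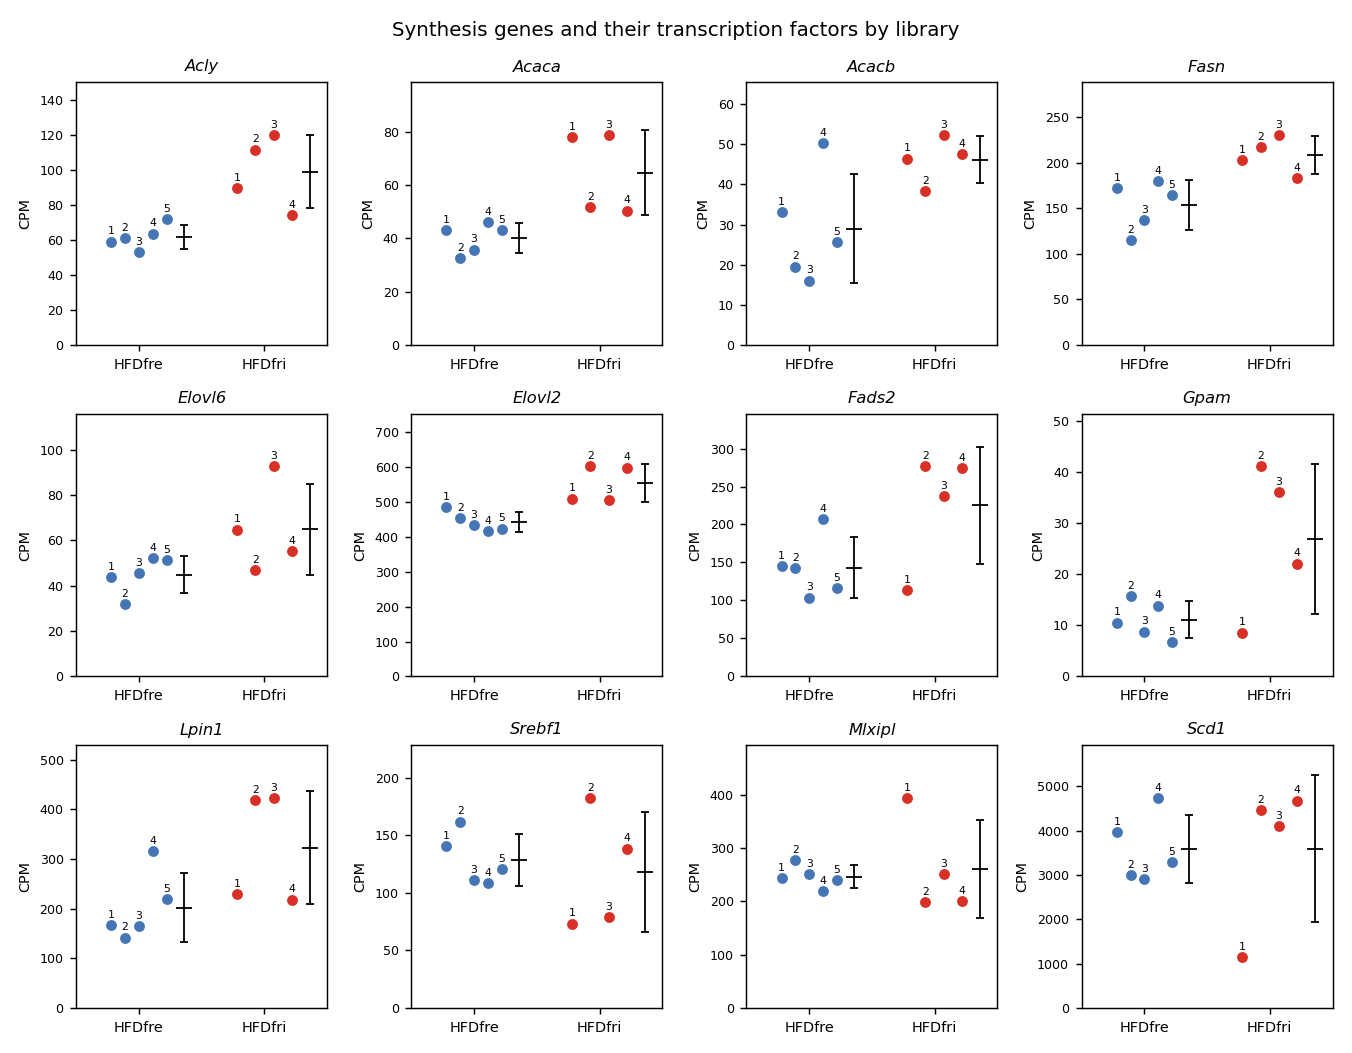
CPM of 12 synthesis genes and transcription factors in each library, with the number of the library above each point (blue HFDfre, red HFDfri) and the mean ± SD of each group as a black bar; every vertical axis starts at 0. Acly, Acaca, Fasn and Elovl2 have no overlap between the groups, and HFDfri 1 is low for Gpam, Fads2, Srebf1 and Scd1 and high for Mlxipl.

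Desaturases place double bonds in fatty acids. Scd1, which makes oleate and palmitoleate, was the most abundant of the 39 genes per length and had nearly equal group means, with 1 library far below the rest. Scd1 (ENSMUSG00000037071, chr19:44394455-44407879, minus strand, GRCm38) was at 3958, 3003, 2904, 4739 and 3297 CPM in HFDfre 1 to 5 and 1137, 4459, 4099 and 4675 CPM in HFDfri 1 to 4. HFDfri 1 was that library, and HFDfri 2 to 4 lay within the upper part of the HFDfre range. The log2 fold change was 0.01 ± 0.33 (SE, edgeR adjusted p = 0.995), which became 0.29 without HFDfri 1. Fads2, the delta-6 desaturase of polyunsaturated fatty acids, was at 145, 142, 104, 207 and 117 CPM in HFDfre 1 to 5 and 113, 277, 237 and 274 CPM in HFDfri 1 to 4. HFDfri 2 to 4 were above every HFDfre library and HFDfri 1 was among the lowest. Its log2 fold change was 0.66 ± 0.25 (edgeR adjusted p = 0.172), which became 0.87 ± 0.18 without HFDfri 1, when it passed the threshold (edgeR adjusted p = 0.0246). Fads1, the delta-5 desaturase, ranged from 311 to 489 CPM, and the log2 fold change was 0.19 ± 0.14. Scd2, a close paralog of Scd1 that is low in adult liver, ranged from 1.03 to 2.05 CPM, with 0.12 ± 0.25. Reads shared between Scd1 and Scd2 could be assigned to either.

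Elongases add carbons to long fatty acids, and they differed among themselves. Elovl2 and Elovl5, which act on polyunsaturated fatty acids, lay in opposite directions. Elovl2 (ENSMUSG00000021364, chr13:41182381-41220405, minus strand, GRCm38) was at 486, 455, 434, 417 and 424 CPM in HFDfre 1 to 5 and 509.6, 602, 505 and 599 CPM in HFDfri 1 to 4, with no overlap between the groups. The means were 443 ± 27.8 CPM (HFDfre, SD, n = 5) against 554 ± 53.9 CPM (HFDfri, SD, n = 4), so that the log2 fold change came to 0.32 ± 0.10 (SE, edgeR adjusted p = 0.105). Elovl5 was at 678, 358, 664, 534 and 537 CPM in HFDfre 1 to 5 and 366, 475, 320.2 and 442 CPM in HFDfri 1 to 4. All HFDfri libraries except HFDfri 3 lay within the HFDfre range, whose lowest library, HFDfre 2, was below HFDfri 1, 2 and 4. The log2 fold change of Elovl5 was -0.47 ± 0.18 (edgeR adjusted p = 0.174). Elovl6, which extends palmitate to stearate, was at 43.6, 31.9, 45.5, 52.00 and 51.2 CPM in HFDfre 1 to 5 and 64.7, 46.7, 92.6 and 55.2 CPM in HFDfri 1 to 4. HFDfri 3 was the highest library and HFDfri 2 lay within the HFDfre range. The log2 fold change of Elovl6 was 0.53 ± 0.19 (edgeR adjusted p = 0.151), which became 0.31 without HFDfri 3 and 0.20 within the libraries under 3% Gm26924. Its exons overlap Gm35986 on the other strand. Elovl1 and Elovl3, which act on saturated chains, ranged from 24.3 to 34.6 CPM and from 54.9 to 123 CPM. Their log2 fold changes were 0.17 ± 0.11 and 0.28 ± 0.22, which became 0.05 and 0.10 without HFDfri 1, the highest library for each.

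In triglyceride assembly the first enzyme had the largest positive log2 fold change of the 39 genes, while those of the last enzymes lay near 0. Gpam (ENSMUSG00000024978, chr19:55067268-55127238, minus strand, GRCm38), the mitochondrial acyltransferase that commits acyl-CoA to glycerolipids, was at 10.5, 15.7, 8.75, 13.8 and 6.76 CPM in HFDfre 1 to 5 and 8.55, 41.1, 36.1 and 22.1 CPM in HFDfri 1 to 4. HFDfri 2, 3 and 4 were above every HFDfre library, and HFDfri 1 lay within the HFDfre range. The means were 11.1 ± 3.64 CPM (HFDfre, SD, n = 5) against 26.96 ± 14.7 CPM (HFDfri, SD, n = 4), so that the log2 fold change came to 1.28 ± 0.37 (SE, edgeR adjusted p = 0.101), and without HFDfri 1 it was 1.56 and passed the threshold (edgeR adjusted p = 0.0159). Lpin1, a phosphatidate phosphatase that also acts as a transcriptional coactivator, was at 167, 141, 165, 316 and 219.7 CPM in HFDfre 1 to 5 and 229.6, 418, 423 and 218 CPM in HFDfri 1 to 4, with HFDfri 2 and 3 highest and HFDfri 1 and 4 inside the HFDfre range. Its log2 fold change was 0.67 ± 0.26 (edgeR adjusted p = 0.176). Mogat1, a monoacylglycerol acyltransferase known to be raised in fatty liver, was low, at 0.558 to 4.37 CPM in HFDfre (median 2.52) and 0.733 to 1.37 CPM in HFDfri, and the log2 fold change was -1.11 ± 0.48 (edgeR adjusted p = 0.219). HFDfre 3, 4 and 5 were above all HFDfri libraries and HFDfre 1 was the lowest of all. Exons of Mogat1 overlap BC035947 on the other strand. Dgat2, which makes triglyceride from newly made fatty acids, was at 425, 416, 343, 463 and 432 CPM in HFDfre 1 to 5 and 342, 438, 432 and 413 CPM in HFDfri 1 to 4. Its groups overlapped over nearly their whole range, and the log2 fold change was -0.03 ± 0.11 (edgeR adjusted p = 0.895). Dgat1 ranged from 13.3 to 17.7 CPM with -0.18 ± 0.09, Agpat2 from 121 to 158 CPM with -0.03 ± 0.10, Agpat3 from 171 to 228 CPM with 0.01 ± 0.10 and Lpin2 from 179 to 298 CPM with 0.20 ± 0.15.

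None of the 5 lipases and their inhibitor had an unadjusted edgeR p under 0.05. Pnpla2, the lipase ATGL that starts the breakdown of stored triglyceride, was at 88.2, 66.2, 61.1, 97.8 and 64.3 CPM in HFDfre 1 to 5 and 74.3, 76.2, 68.4 and 86.9 CPM in HFDfri 1 to 4. The HFDfri libraries lay inside the HFDfre range, and the log2 fold change was 0.02 ± 0.15 (edgeR adjusted p = 0.961). Pnpla3, the droplet protein adiponutrin, was low, at 0.789, 0.498, 0.489, 0.660 and 0.364 CPM in HFDfre 1 to 5 and 0.819, 0.816, 1.02 and 0.296 CPM in HFDfri 1 to 4. HFDfri 1 to 3 were above all HFDfre libraries by their CPM and HFDfri 4 was below them, and the log2 fold change was 0.40 ± 0.39 (edgeR adjusted p = 0.594). G0s2, the inhibitor of ATGL, ranged from 81.5 to 330.2 CPM, with the highest value in HFDfri 1. The other HFDfri libraries lay inside the HFDfre range. The log2 fold change of G0s2 was 0.26 ± 0.34, and it became -0.24 without HFDfri 1. Lipe, the hormone-sensitive lipase, ranged from 13.96 to 19.3 CPM with -0.09 ± 0.12, and Mgll, which cleaves monoacylglycerol, ranged from 153 to 266 CPM with -0.14 ± 0.15.

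The log2 fold changes of the droplet proteins differed in sign. Plin2, the main perilipin of hepatocytes and a common index of stored fat, had a positive log2 fold change, whereas all 3 CIDE genes and Plin4 had negative ones. Plin2 was at 280.4, 241, 289.8, 388 and 288 CPM in HFDfre 1 to 5 and 416, 318, 284 and 448 CPM in HFDfri 1 to 4. Its groups overlapped, and the log2 fold change was 0.30 ± 0.16 (edgeR adjusted p = 0.314). Plin4 was at 25.9, 16.9, 25.3, 59.8 and 17.7 CPM in HFDfre 1 to 5 and 10.1, 12.7, 11.1 and 24.1 CPM in HFDfri 1 to 4. HFDfri 1 to 3 were below every HFDfre library, HFDfri 4 lay among them, and HFDfre 4 was far above the others. The log2 fold change of Plin4 was -1.01 ± 0.38 (edgeR adjusted p = 0.164). It was -0.57 without HFDfre 4 and -0.46 within the libraries under 3% Gm26924, and exons of Plin4 overlap Hdgfl2 on the other strand. Plin3 and Plin5, the latter linked to droplets beside mitochondria, ranged from 20.4 to 30.5 CPM and from 36.3 to 75.8 CPM, with log2 fold changes of 0.05 ± 0.14 and -0.10 ± 0.21.

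CIDE proteins fuse droplets, and fatty livers are known to induce Cidea and Cidec. Cidea was low in these libraries, at 1.74 CPM or less, while Cidec reached 38.9 CPM. Cidea (ENSMUSG00000024526) was at 0.674, 0.187, 1.12, 1.74 and 0.616 CPM in HFDfre 1 to 5 and 0, 0.235, 0.136 and 0.247 CPM in HFDfri 1 to 4. In estimated counts this was 35, 12, 73, 124 and 44 in HFDfre and 0, 17, 10 and 15 in HFDfri. HFDfre 2 lay within the HFDfri range and the other HFDfre libraries lay above it. The fitted log2 fold change of -2.46 ± 0.76 (edgeR adjusted p = 0.113, DESeq2 adjusted p = 0.0109) rests on these few counts. Without HFDfri 1 it was -2.08. Cidec was at 8.99, 4.25, 19.7, 38.9 and 11.99 CPM in HFDfre 1 to 5 and 5.38, 5.56, 3.73 and 14.7 CPM in HFDfri 1 to 4. Its HFDfre libraries spread over the whole range, with HFDfre 2 near the lowest HFDfri libraries and HFDfre 4 the highest of all. The log2 fold change of Cidec was -1.19 ± 0.57 (edgeR unadjusted p = 0.057, adjusted p = 0.251), which was -0.62 without HFDfre 4 and -1.78 without HFDfri 4. Cideb, the family member of normal hepatocytes, which also serves the loading of lipoproteins, was at 279, 222, 253, 255 and 259 CPM in HFDfre 1 to 5 and 252, 199, 181 and 201 CPM in HFDfri 1 to 4, where HFDfri 2, 3 and 4 were below every HFDfre library. Its log2 fold change was -0.28 ± 0.11 (edgeR adjusted p = 0.178), and without HFDfri 1 it was -0.40 and passed the threshold (edgeR adjusted p = 0.0312). Exons of Cideb overlap Nop9 on the other strand.

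Since Cidea, Cidec and Plin4 are also adipocyte genes, markers of adipocytes were examined beside them. Adipoq and Plin1, which define adipocytes, were at 0 in every library, and Lep, Ucp1 and Retn were below 1 CPM in every library. Of the 8 markers 3 could be tested, and all 3 had negative log2 fold changes, that of Adrb3 being slight (-0.04 ± 0.25). The other 2 of the 3 (66.7%) had an unadjusted edgeR p under 0.05, against 21.2% of all genes tested. These were Cfd, with 27.3, 13.3, 46.1, 49.97 and 22.3 CPM in HFDfre 1 to 5 and 8.42, 11.4, 8.50 and 28.8 CPM in HFDfri 1 to 4 (log2 fold change -1.16 ± 0.44), and Fabp4 (-0.48 ± 0.19). The summed CPM of the list ran from 27.9 to 62.5 in HFDfre and from 19.5 to 37.7 in HFDfri. Within HFDfre, HFDfre 2 was the lowest and HFDfre 4 the highest library for Cfd, Cidea, Cidec and Plin4. Within HFDfri, HFDfri 4 was the highest for all 4 genes. The part of other cells in the values of these genes was not tested. In whole liver, fewer cells of a type and less RNA per cell cannot be told apart.

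**Figure D3:**
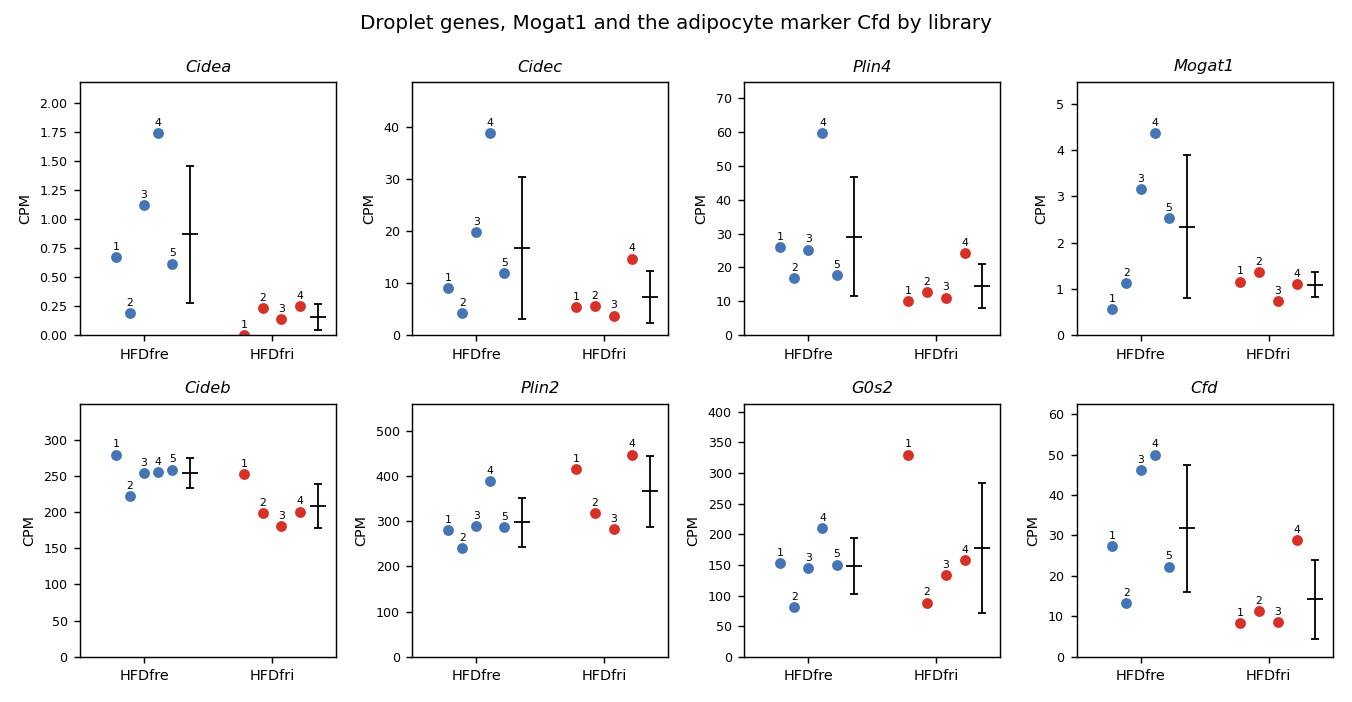
CPM of 7 droplet and triglyceride genes and of the adipocyte marker Cfd in each library, with the number of the library above each point (blue HFDfre, red HFDfri) and the mean ± SD as a black bar; every vertical axis starts at 0. HFDfre 4 is the highest library for Cidea, Cidec, Plin4, Mogat1 and Cfd, and HFDfri 4 is the highest of its group for Cidea, Cidec, Plin4, Plin2 and Cfd.

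Compared per kilobase of exon, the mean levels of the 39 genes spanned from 0.277 CPM per kb for Scd2 to 733 CPM per kb for Scd1. G0s2, Thrsp, Cideb and Elovl5 followed Scd1 with 185, 164, 157 and 138 CPM per kb. Dgat2 was at 134 and Plin2 at 93.4 CPM per kb, while Fasn was at 16.2, Acly at 14.8, Acaca at 2.99 and Gpam at 2.72 CPM per kb. Of the 6 genes with the smallest p-values, Elovl2 ranked 7 by level, at 124 CPM per kb, and the others ranked from 23 to 37. Cidea, Pnpla3 and Scd2 were the 3 lowest. These levels use the length of all annotated exons of a gene and do not allow for which transcripts the liver uses.

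The libraries differed in how many of the 39 genes they held at an extreme. HFDfre 4 was the highest of the 9 libraries for 13 of the 39 genes (33.3%), against 10.6% of all genes tested. HFDfri 1 was the lowest for 11 of them (28.2%), against 17.3% of all genes, and HFDfre 2 for 8 (20.5%), against 7.60%. HFDfri 3 was the highest for 8 and the lowest for 7 (17.3% and 14.2% of all genes), with Acly, Acaca, Elovl6 and Fasn among the former and Elovl5, Cidec and Cideb among the latter. When HFDfri 1 was left out, 6 of the 39 genes passed the adjusted threshold instead of 1, namely Acly, Acaca, Elovl2, Fads2 and Gpam, which rose, and Cideb, which fell. In that fit 1106 of the 14463 genes tested passed, against 150 of 14220 with all libraries, so calls rose among all genes too. HFDfri 2, 3 and 4 shared higher Gpam and Fads2, which HFDfri 1 did not, while HFDfri 1 shared the higher Acly, Acaca and Fasn.

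**Figure D4:**
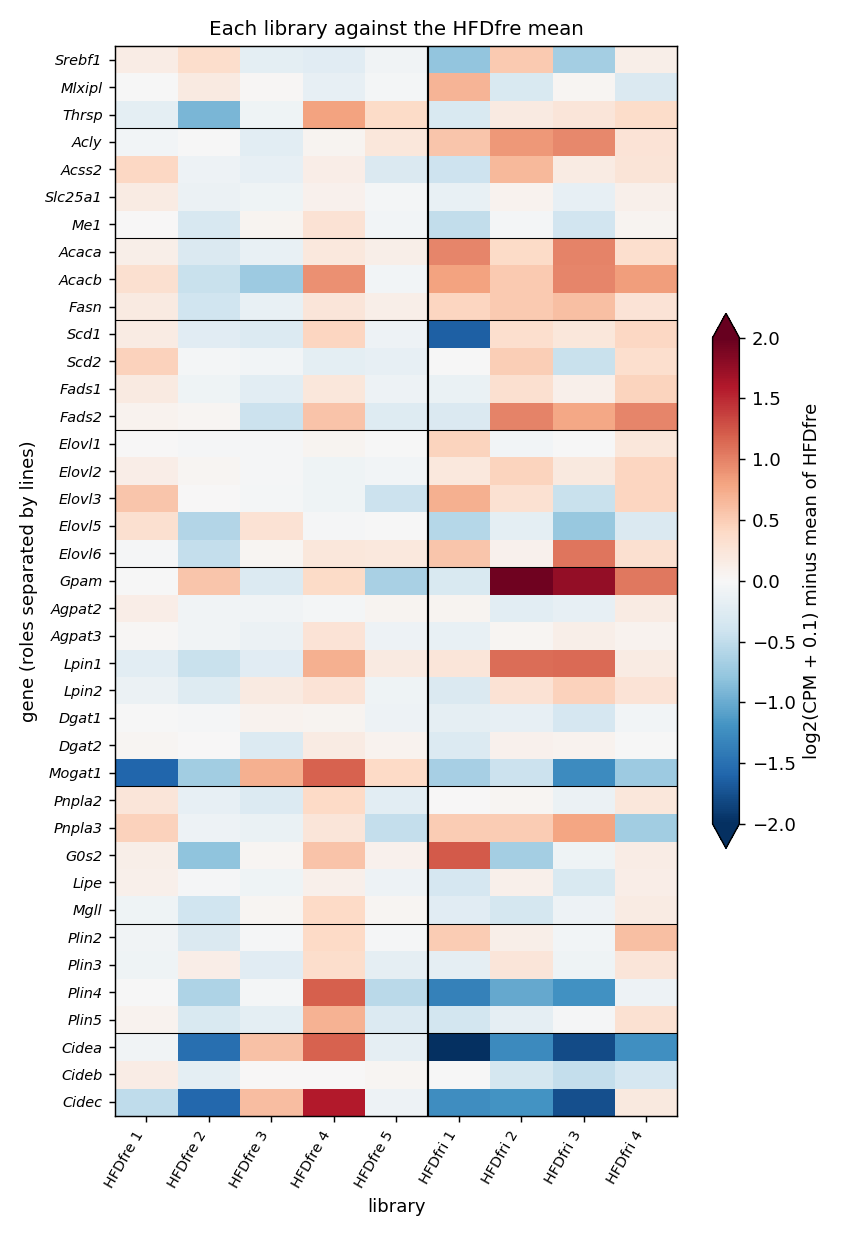
The 39 genes in rows, grouped by role, and the 9 libraries in columns; the colour is log2(CPM + 0.1) minus the mean of the HFDfre libraries, from blue (-2 or lower) to red (2 or higher). Acly, Acaca, Acacb and Fasn are red in all HFDfri columns, Gpam is darkest red in HFDfri 2 and HFDfri 3, and Scd1 is dark blue in HFDfri 1.

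Other genes of the same pathways were read from the same fit. Of 66 such genes 61 were tested, 35 higher and 26 lower in HFDfri, and 18 of them (29.5%) had an unadjusted edgeR p under 0.05, against 21.2% of all genes tested. These were 10 higher genes (16.4%, against 11.4% of all genes) and 8 lower genes (13.1%, against 9.79%). Acsl4, which activates arachidonate and other polyunsaturated fatty acids, was the only gene of these to pass the adjusted threshold. It was at 19.8, 19.1, 17.9, 19.5 and 22.6 CPM in HFDfre 1 to 5 and 33.9, 32.2, 45.2 and 34.1 CPM in HFDfri 1 to 4, with no overlap between the groups. It rose with a log2 fold change of 0.88 ± 0.11 (SE, edgeR adjusted p = 0.0147, higher in 4 of 4 HFDfri libraries). The call was lost without HFDfre 3 (edgeR adjusted p = 0.0539) and within the libraries under 3% Gm26924, where the log2 fold change was 0.71 (edgeR adjusted p = 0.383). The 6 acyl-CoA synthetases tested had log2 fold changes from 0.00 to 0.88. Among the 17 regulators of SREBP and ChREBP activity 11 were higher and 6 lower. Mbtps1, the site-1 protease that releases SREBP from its membrane anchor, had 0.26 ± 0.08 (edgeR adjusted p = 0.117), and Prkaa2, a catalytic subunit of AMPK, which inhibits the carboxylases by phosphorylation, had 0.45 ± 0.14 (edgeR adjusted p = 0.116). Usf1, a transcription factor known to bind the Fasn promoter, had -0.29 ± 0.10 (edgeR adjusted p = 0.127). Of the 16 other droplet and lipase genes 7 were higher and 9 lower. Tm6sf2, which serves the loading of lipoproteins with triglyceride, had -0.36 ± 0.09 (edgeR adjusted p = 0.0685), and Fitm1, which helps to form droplets, had -0.55 ± 0.18 (edgeR adjusted p = 0.127). The precursor and NADPH genes had 1 of 6, the other elongation and desaturation genes 3 of 7 and the other glycerolipid genes 2 of 9 with an unadjusted p under 0.05, beside the same 21.2% of all genes.

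Markers of the cells a liver holds, and clock genes, gave the following beside these results. Of 8 hepatocyte markers, 2 had an unadjusted edgeR p under 0.05 in each direction, with Cps1 and Hnf4a higher and Ttr and Apoc3 lower. Their summed CPM ran from 93510.4 to 101356 in HFDfre and from 82353 to 110721 in HFDfri. The counts were 2 of 8 for hepatic stellate cells (both lower) and 0 of 8 for Kupffer cells and macrophages. For endothelial cells the count was 1 of 8 (lower), and for cholangiocytes it was 1 of 7 (higher). Beside these counts and those of the hepatocyte markers, 21.2% of all genes tested had an unadjusted edgeR p under 0.05. The higher genes made up 11.4% of all genes tested and the lower genes 9.79%. The summed CPM ran from 111 to 179.5 in HFDfre and 98.9 to 170.4 in HFDfri for stellate cells, from 63.4 to 139 and 73.3 to 97.2 for Kupffer cells, from 89.1 to 103 and 69.3 to 109.9 for endothelial cells, and from 35.9 to 56.3 and 33.3 to 58.7 for cholangiocytes. Several lipogenic genes follow the daily feeding rhythm. Of 14 clock genes 3 (21.4%) had an unadjusted edgeR p under 0.05, much the same as the 21.2% of all genes tested. Dbp, a clock output gene, fell (-0.80 ± 0.13, edgeR adjusted p = 0.0293, and from 0.0636 to 0.0888 without any of HFDfre 3, HFDfre 5, HFDfri 3 or HFDfri 4), while Per3 had -0.53 ± 0.15 and Clock had 0.58 ± 0.14. The part of sampling time in the values of the lipid genes was not tested.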

How the data were processed

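RNA from whole liver of mice fed HFD stored in a freezer (HFDfre, 5 libraries) or a fridge (HFDfri, 4 libraries) was sequenced as paired-end Illumina reads. The library kit is named differently in the labels and in the study's methods, and which was used was not settled. The authors deposited estimated counts per gene, as unscaled whole numbers. The submitters' processing notes name HISAT2, StringTie and the build mm10; versions, annotation and strand use are not given in the sources used here, so overlapping genes may share reads. Among low values, multiples of 4 are in excess (4 is found in 3990 gene and library pairs, 3 in 2172 and 5 in 1840), so count models give counting error only approximately. Of the identifiers, 96.3% were in GENCODE M21 (GRCm38), from which positions and exon lengths were taken. Besides the overlaps named in the results, exons of Mlxipl, Acss2, Me1, Scd2, Elovl1, Elovl3, Agpat2, Agpat3, Lipe, Mgll and Pnpla3 overlap other annotated genes.

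Columns were matched to samples by the code in each title. Counts were rounded, which left them as they were, and genes were kept by filterByExpr. edgeR 4.0.16 (quasi-likelihood test, TMM, no covariate) under R 4.3.3 compared the groups, HFDfri minus HFDfre, two-sided, with Benjamini-Hochberg adjustment over all 14220 genes tested and a threshold of 0.05. The standard error is the log2 fold change divided by the square root of F. Log2 CPM used a prior count of 2. Values in every library are given for genes past the adjusted p, for the 12 with the smallest p and for 13 key genes; genes of the other lists are named if past the adjusted p or among the 6 smallest p. The 39 genes, the other lists and these rules were chosen with earlier results of these data known. Alternatives were DESeq2 1.42.0, limma-voom (limma 3.58.1), other scalings and filters, robust dispersion, a replicate term, the Gm26924 share in percent as a covariate, fits without mitochondrial genes and Gm26924, and leaving out each library; the libraries under 3% Gm26924 were added after seeing the data. The scripts were tested on simulated data.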

Additional observations from a re-analysis of the deposited data

Results flagged for a closer look

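For each of the 39 genes, the log2 CPM of the lowest and the highest library of each group was set against the rest of that group. Of the 78 combinations of gene and group, 2 had a library far from the rest, where about 1 in 20, or 3.90 of 78, would be found by chance. The first case is Scd1 in HFDfri. HFDfri 1 had a log2 CPM of 10.15, while the other HFDfri libraries had 12.001 to 12.19, and the distance to the nearest of them made up 0.907 of the spread from lowest to highest. The second is Scd2 in HFDfre, where HFDfre 1 had 1.02 and the others had 0.34 to 0.50, with the distance making up 0.763 of the spread. Scd1 and Scd2 are paralogs, and the library was a different one in each case. What set these libraries apart was not tested.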

How the results depend on the processing

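The count of the 39 genes past the adjusted p, 1, became 5 with DESeq2 (Acly, Acaca, Cidea, Elovl2, Fasn) and 0 with library totals without TMM, with no filter, with the Gm26924 share as a covariate and within the libraries under 3% Gm26924. For all genes the 150 became 1033, 76, 72, 38 and 2. Leaving out 1 library at a time gave 0 to 6 of the 39 genes (6 without HFDfri 1) and from 6 to 1106 of all genes, the lowest without HFDfre 3 or HFDfre 5. At an unadjusted p, these fits gave from 9 to 14 of the 39 genes, from 1966 to 3715 of all genes and from 9 to 17 of the other pathway genes. Within the libraries under 3% Gm26924, the last 2 counts were 1401 and 9, with 12 of the 39 genes. No pairing of the libraries by replicate number was seen. The correlation of deviations for the same number was from -0.136 to 0.0813, with 0 of 4 pairs over 0.1. Pairs of different numbers were not compared, so a weak pairing could have been missed. Under a replicate block, 0 of the 39 genes and 0 of all genes passed, with 13 and 2536 at an unadjusted p under 0.05. Fewer genes tested or fewer samples are part of some of these alternatives; for the rest the cause was not tested. Of 399 log2 fold changes of 20 named genes under 20 alternatives, 353 kept their direction and side of the threshold, 12 lost it (all of Acly), 10 gained it and 24 changed sign. The sign changes were those of genes near 0. Scd1 was -0.17 with limma-voom, -0.0051 with no filter, -0.0082 with at least 10 counts in every library, and -0.15 under the block, and from -0.15 to 0.29 with 1 library left out. Dgat2 was 0.031 with library totals, 0.019 with the covariate and 0.031 under 3% Gm26924, and from -0.10 to 0.029 with 1 library left out. Pnpla2 was -0.013 under the block, 0.33 under 3% Gm26924 and from -0.055 to 0.13 with 1 library left out. Srebf1 was 0.17 under 3% Gm26924 and from -0.41 to 0.042 with 1 library left out, and Mlxipl was from -0.20 to 0.20. Acsl4 and Dbp kept their direction under all 20 alternatives, and under the block their edgeR adjusted p were 0.123 and 0.0692. With the covariate the edgeR adjusted p of Dbp was 0.0574. Within the libraries under 3% Gm26924 it was 0.408, with a log2 fold change of -0.67. Cidea could not be tested with at least 10 counts in every library.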

Other observations

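Of the 66 other pathway genes, 5 were too low to be tested. Plin1, the perilipin of adipocytes, and Scd4, a further stearoyl-CoA desaturase, were at 0 in every library. Scd3 was at 0.0421 CPM on average in HFDfre and 0.0724 CPM in HFDfri, Acss1 at 0.142 and 0.0888 CPM, and Elovl4, which makes very long chains, at 0 and 0.0136 CPM. Scd1 was thus the only stearoyl-CoA desaturase above 3 CPM in any library.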
